A study of Homo sapiens with 8 samples.

Results

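The transforming growth factor beta (TGF-beta) genes described here are 3 ligands (TGFB1, TGFB2, TGFB3), 3 receptors (TGFBR1, TGFBR2, TGFBR3), 3 SMAD transducers (SMAD2, SMAD3, SMAD4) and the matrix gene TGFBI. They were taken by symbol from the deposited count table, and all 10 were found among its 23391 genes. All 10 also passed the filter on low counts that left 13856 genes for testing. RNA was measured in 8 libraries of DU145 cells, an established human prostate cancer cell line. The cells had been transfected either with the empty vector pcDNA3.1-zeo (+), giving DU145-pc3.1, or with the same vector carrying Esrrb, giving DU145-Esrrb. Esrrb is an orphan nuclear receptor that binds DNA, and DY131 is a synthetic ligand of it and of the related receptor Esrrg. Each cell type was left untreated or given 3 µM DY131, which makes 4 groups of 2 libraries (DU145-pc3.1, DU145-Esrrb, DU145-pc3.1+DY131 and DU145-Esrrb+DY131). All cells had grown for 3 weeks in 150 µg/ml Zeocin. Each cell type is a pool of stable transfectants and not a clone, and how many integrations a pool holds is not given in the sources used here. RNA was taken from confluent cells in medium with charcoal-stripped serum, in which DY131 was also given, and the untreated cells are called vehicle-treated in the series description. How long the treatment of the sequenced cells lasted is not given there either.

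TGF-beta ligands are secreted in a latent form, held by latency proteins in the matrix until they are released. An active ligand binds TGFBR2, which recruits and phosphorylates TGFBR1. TGFBR3, also called betaglycan, is a co-receptor that presents ligand to this pair and matters most for TGFB2. The activated receptors phosphorylate SMAD2 and SMAD3, which join SMAD4 and act on genes in the nucleus. TGFBI encodes a secreted matrix protein that is induced by TGF-beta in many cells. The pathway restrains growth in normal epithelium, while carcinoma cells often respond to it by changes in matrix, adhesion and motility. In the study TGFB1, given by its identifier NM_000660, was the negative control of the qPCR on Esrrb-altered mRNAs. Its level across the groups is thus of interest. The study's calls needed a log2 fold change of at least 1 in either direction, besides a false discovery rate under 0.05. The calls made here have no such fold cut, so the 2 are not alike.

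The libraries held from 7858743 to 11551690 counts on genes. The 2 DU145-Esrrb+DY131 libraries were the shallowest, at 7858743 and 9054498 counts. ESRRB had 104 and 99 counts in the DU145-Esrrb libraries and 105 and 143 in the DU145-Esrrb+DY131 libraries. It had 3 and 0 counts in DU145-pc3.1 and 0 and 1 in DU145-pc3.1+DY131, so every library went with its labelled cell type. Scaled for depth, ESRRB was itself higher with DY131 in DU145-Esrrb, by a log2 fold change of 0.74 (adjusted p = 0.00315, edgeR quasi-likelihood test), and its part in the changes with DY131 in these cells was not tested. The epithelial markers KRT8, KRT18, KRT7, EPCAM and CDH1 summed to between 3395 and 4160 counts-per-million (cpm) in every library. Within this sum CDH1, which encodes E-cadherin, had means of 161.4, 110.7, 95.9 and 67.8 cpm in DU145-pc3.1, DU145-Esrrb, DU145-pc3.1+DY131 and DU145-Esrrb+DY131, while KRT8 had 1093, 1247, 1292 and 1622 cpm. The prostate luminal marker KLK3 had 0 counts in every library. The fibroblast markers DCN, COL1A2 and COL3A1 had at most 2 counts and COL1A1 at most 5.70 cpm. The leukocyte markers PTPRC and CD3E had at most 1 count, while CD68 stood at 59.3 to 93.5 cpm, highest in DU145-Esrrb+DY131, and its part in the results was not tested. The endothelial markers had at most 8 counts. Replicates of DU145-pc3.1+DY131 differed more than those of any other group, with a chi-square of 7.30 per degree of freedom over genes against 2.67, 1.83 and 1.29 in DU145-pc3.1, DU145-Esrrb and DU145-Esrrb+DY131.

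The promoters are shown for TGFB1 and TGFBI, because these 2 genes were the members altered between untreated DU145-Esrrb and DU145-pc3.1 cells. A stretch of TGFBR1 is also shown, because 1 of its 8 start windows held the only match to the half-site bound by estrogen-related receptors. The sequences come from the RefSeq promoter table on GRCh38.p14, in which all 10 members have an entry and which gives 24 start sites for them. For TGFB1 the 250 bases before the start on the minus strand are given, at chr19:41353923-41354172. For TGFBI the stretch is 157 bases on the plus strand at chr5:136028738-136028894, which ends where the first exon of GENCODE 29 begins. For TGFBR1 the 67 bases around the match are given, on the plus strand at chr9:99105680-99105746. None of these bases lies in an annotated exon of its gene. Capitals mark a match to any of the 3 motifs searched.
TGFB1: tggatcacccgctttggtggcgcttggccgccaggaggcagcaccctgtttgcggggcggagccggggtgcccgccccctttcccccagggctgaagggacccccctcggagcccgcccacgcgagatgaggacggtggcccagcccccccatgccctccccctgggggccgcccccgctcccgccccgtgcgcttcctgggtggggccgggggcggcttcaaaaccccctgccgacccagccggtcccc
TGFBI: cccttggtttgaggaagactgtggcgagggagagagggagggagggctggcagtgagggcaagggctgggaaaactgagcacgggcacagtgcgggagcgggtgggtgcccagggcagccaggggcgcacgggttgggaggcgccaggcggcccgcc
TGFBR1: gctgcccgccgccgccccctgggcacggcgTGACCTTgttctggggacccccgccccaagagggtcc

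The motifs were AAGGTCA (the half-site of estrogen-related receptors), CAGACA (a SMAD box) and TGACTCA (an AP-1 site), each searched on both strands in the 250 bases before each start. AAGGTCA was in 1 of the 24 member windows, the TGFBR1 window shown, where it lies on the opposite strand between 104 and 98 bases before the start. Over all genes, 3.44% of 35116 windows held it. CAGACA was in 4 of the 24 windows, those of TGFB2, of 2 TGFBR1 starts and of 1 SMAD3 start, against 13.6% of all windows. TGACTCA was in 1 window, at a SMAD3 start, against 4.20% of all windows. The windows of TGFB1 and TGFBI held none of these letters, which says nothing about sites elsewhere.

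On GRCh38 (GENCODE 29, not the hg18 build of the counts), TGFB1 lies at chr19:41301587-41353911 on the minus strand with 7 exons, TGFB2 at chr1:218346235-218444619 with 8 and TGFB3 at chr14:75958099-75982991 on the minus strand with 7. The receptors lie at chr9:99104038-99154192 (TGFBR1, 8 exons), chr3:30606502-30694142 (TGFBR2, 8 exons) and chr1:91680343-91906335 (TGFBR3, minus strand, 17 exons). SMAD2 (chr18:47808957-47931146, minus strand, 11 exons) and SMAD4 (chr18:51028394-51085045, 12 exons) share a chromosome, SMAD3 lies at chr15:67063763-67195195 (9 exons) and TGFBI at chr5:136028895-136063818 (17 exons). The table gives 1 count per gene, so isoforms are not told apart.

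Levels between genes were compared as cpm per kilobase of the matched transcript. In DU145-pc3.1 cells TGFBI was at 158.8 ± 4.31 (SD, n = 2) and SMAD3 at 154.9 ± 2.77, a gap within their spread. TGFBR2 followed at 43.8 ± 3.24 and TGFB1 at 32.8 ± 0.309. TGFBR1 and TGFB2 were at 12.5 ± 0.681 and 12.3 ± 0.0209 and SMAD2 and SMAD4 at 8.41 ± 0.290 and 8.09 ± 0.379, and neither pair differed beyond its spread. TGFBR3, at 2.23 ± 0.372, and TGFB3, at 1.58 ± 0.0901, were lowest. TGFB1 was thus the most abundant ligand and TGFBR2 the most abundant receptor by this measure. The order depended on the transcript: with the longest annotated one in place of the matched one, SMAD3 fell from 154.9 to 38.9 cpm per kilobase, SMAD2 from 8.41 to 2.94 and TGFBI from 158.8 to 95.5. In DU145-Esrrb cells TGFBI was at 85.0 ± 0.937 cpm per kilobase, below SMAD3 at 152.0 ± 0.716, an order that turns with the longest transcripts (51.1 for TGFBI and 38.1 for SMAD3). In DU145-pc3.1+DY131 cells TGFBI was at 302.6 ± 6.38 and led SMAD3 at 160.5 ± 19.2.

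**Figure D1:**
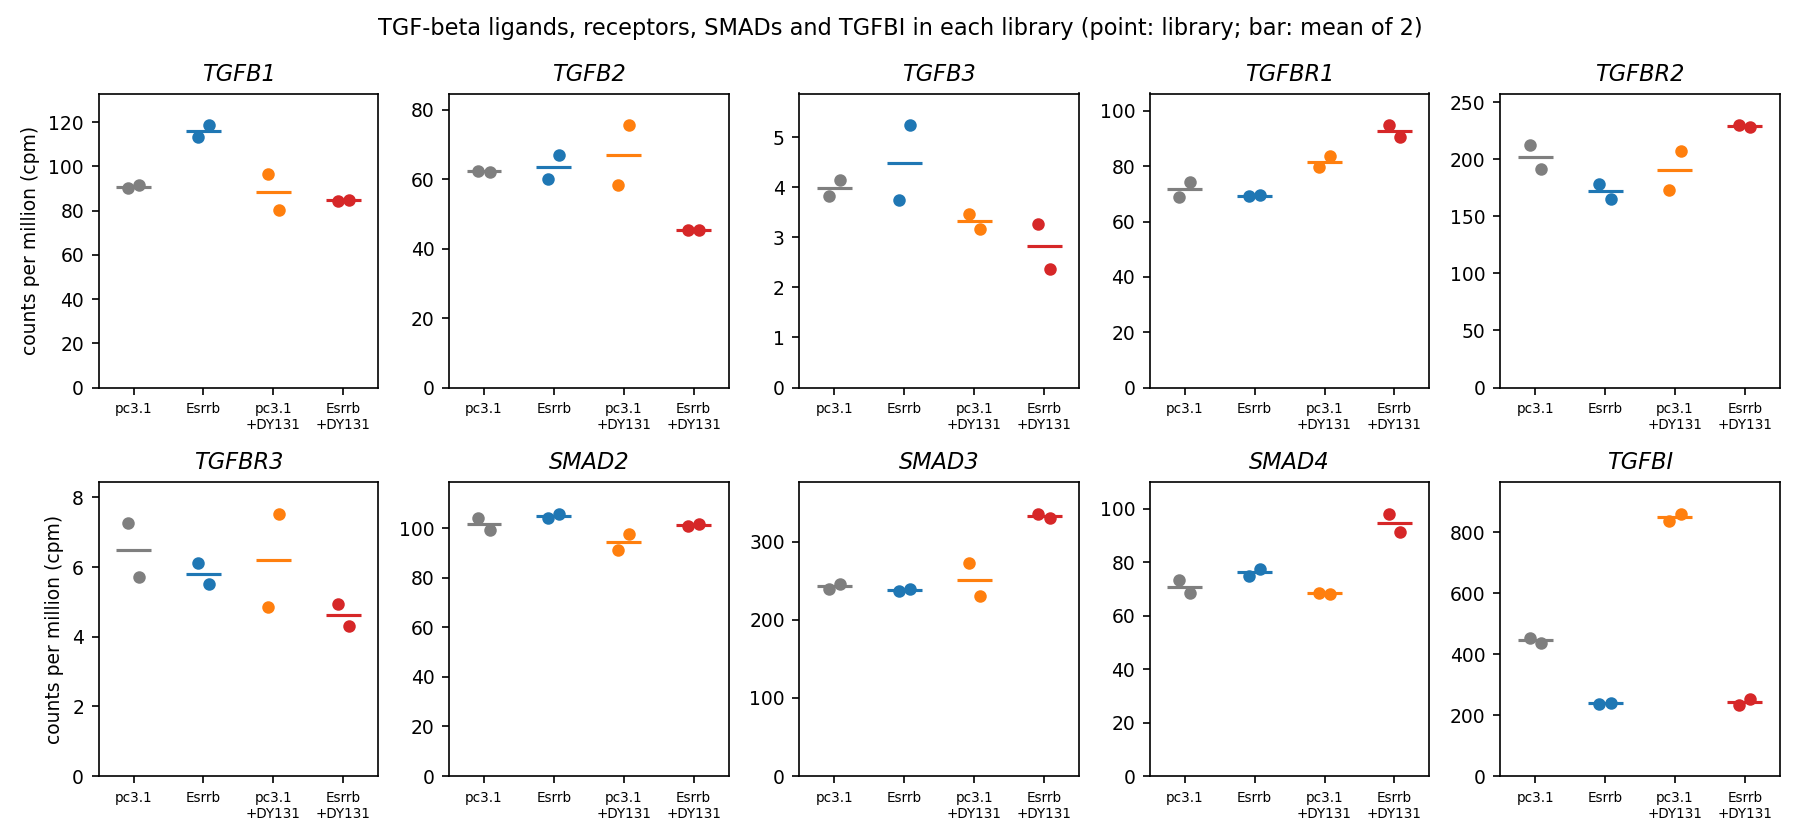
Level in cpm (vertical axis, from 0) of the 10 genes in each of the 8 libraries, with a point for each library and a bar at the mean of the 2 libraries of a group. TGFBI lies between 233 and 254 cpm in all 4 Esrrb-carrying libraries, between 437 and 454 in DU145-pc3.1 and between 836 and 861 in DU145-pc3.1+DY131.

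Esrrb without DY131 was addressed by comparing DU145-Esrrb with DU145-pc3.1, both untreated. TGFBI was lower and TGFB1 higher, while the other 8 genes did not pass the test. A gene is called altered here when the edgeR quasi-likelihood test gave it an adjusted p (Benjamini-Hochberg, over the 13856 genes) under 0.05. By this rule 4.18% of all tested genes were altered, 1.68% higher and 2.5% lower, and 2 of the 10 members, 1 higher and 1 lower. No member was altered by at least 2-fold, as were 0.577% of all genes. The median log2 fold change was 0.00 for the members and 0.00 for all tested genes. In 5 of the 10 members the libraries of the groups did not overlap, which held for 51.6% of all genes.

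TGFBI (NM_000358, on chromosome 5) was at 453.7 and 436.6 cpm in DU145-pc3.1 and at 236.4 and 240.1 cpm in DU145-Esrrb. The groups lay far apart relative to the gap between replicates. TGFBI was thus lower by a log2 fold change of -0.90 (SE 0.06, adjusted p = 1.94e-07, edgeR quasi-likelihood test). As large a change in either direction was seen in 1.96% of all tested genes.

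TGFB1 (NM_000660, on chromosome 19), the ligand with the highest level, was at 90.3 and 91.5 cpm in DU145-pc3.1 and at 113.3 and 118.7 cpm in DU145-Esrrb. Both DU145-Esrrb libraries were above both control libraries, at a log2 fold change of 0.35 (SE 0.08, adjusted p = 0.0155, edgeR quasi-likelihood test), a 1.28-fold difference, and 12.4% of all genes changed by as much. The call rested on all 4 libraries: without any 1 of them the log2 fold change was 0.32 to 0.39 and the adjusted p 0.0812 to 0.167.

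Among the receptors, TGFBR2 was at 212.3 and 191.2 cpm in DU145-pc3.1 and at 178.0 and 165.6 cpm in DU145-Esrrb. The groups did not overlap, and the log2 fold change of -0.23 (SE 0.08) gave an adjusted p of 0.121 in the edgeR quasi-likelihood test. It was 0.0130 with no filter on low counts and 0.0156 with only these 4 libraries in the fit. TGFBR1 and TGFBR3 had log2 fold changes of -0.05 and -0.15. The SMADs had values of 0.05 (SMAD2), -0.03 (SMAD3) and 0.10 (SMAD4), with 95% intervals that lay between -0.17 and 0.25. TGFB2 was at 0.03, and TGFB3, with 40 to 57 counts a library, at 0.17 with an interval from -0.33 to 0.67.

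DY131 in cells without Esrrb was addressed by DU145-pc3.1+DY131 against DU145-pc3.1. TGFBI rose and TGFBR1 rose slightly, and the other 8 genes did not pass the test. Of all tested genes, 37.4% were altered here, 18.9% higher and 18.5% lower, against 2 of the 10 members, both higher. No member was altered by at least 2-fold, as were 4.19% of all genes. The members' median log2 fold change was -0.04 and that of all genes 0.00. The libraries of the groups did not overlap for 4 members and for 65.5% of all genes. This comparison and the previous one share the DU145-pc3.1 libraries.

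TGFBI stood at 835.7 and 861.0 cpm with DY131, against 453.7 and 436.6 cpm without. The treated libraries lay well above the untreated ones, by a log2 fold change of 0.93 (SE 0.06, adjusted p = 3.17e-08, edgeR quasi-likelihood test), and 5.72% of all genes changed by as much.

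TGFBR1, the kinase that phosphorylates SMAD2 and SMAD3, was at 68.9 and 74.4 cpm untreated and at 79.7 and 83.7 cpm with DY131. The groups did not overlap, with a log2 fold change of 0.19 (SE 0.07, adjusted p = 0.0406, edgeR quasi-likelihood test). The call was lost without DU145-pc3.1 replicate 1 (0.14), without DU145-pc3.1+DY131 replicate 2 (0.15) and with DESeq2 (0.20, adjusted p = 0.132). It was also lost with scaling by library size alone, with no filter and with only the libraries compared. The same held for the 6 numbered libraries with no replicate block and for an offset for transcript length and GC content.

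None of the remaining members passed the test. TGFB1 was at 96.7 and 80.3 cpm with DY131, on either side of the untreated values of 90.3 and 91.5, and its log2 fold change was -0.04 (95% interval -0.20 to 0.13). TGFB2 was at 58.2 and 75.6 cpm with DY131, again on either side of the untreated 62.3 and 62.2. SMAD3 was at 272.8 and 230.2 cpm against 239.7 and 245.8, a log2 fold change of 0.05. The treated replicates of TGFB1, TGFB2, TGFBR2, TGFBR3, SMAD3 and SMAD4 overlapped the untreated values. Which treated library was left out decided 3 calls: TGFB2 was at 0.29 (adjusted p = 0.00436) without replicate 1, while TGFBR2 was at -0.22 (adjusted p = 0.00735) and SMAD3 at 0.17 (adjusted p = 0.0130) without replicate 2. SMAD2 and SMAD4 had log2 fold changes of -0.10 and -0.05, and TGFB3 and TGFBR3 of -0.26 and -0.07. With an offset for transcript length and GC content SMAD2 was lower, at -0.35 (adjusted p = 2.26e-04), as was SMAD4, at -0.25 (adjusted p = 0.00663), and TGFBR1 was at 0.06 (adjusted p = 0.534).

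**Figure D2:**
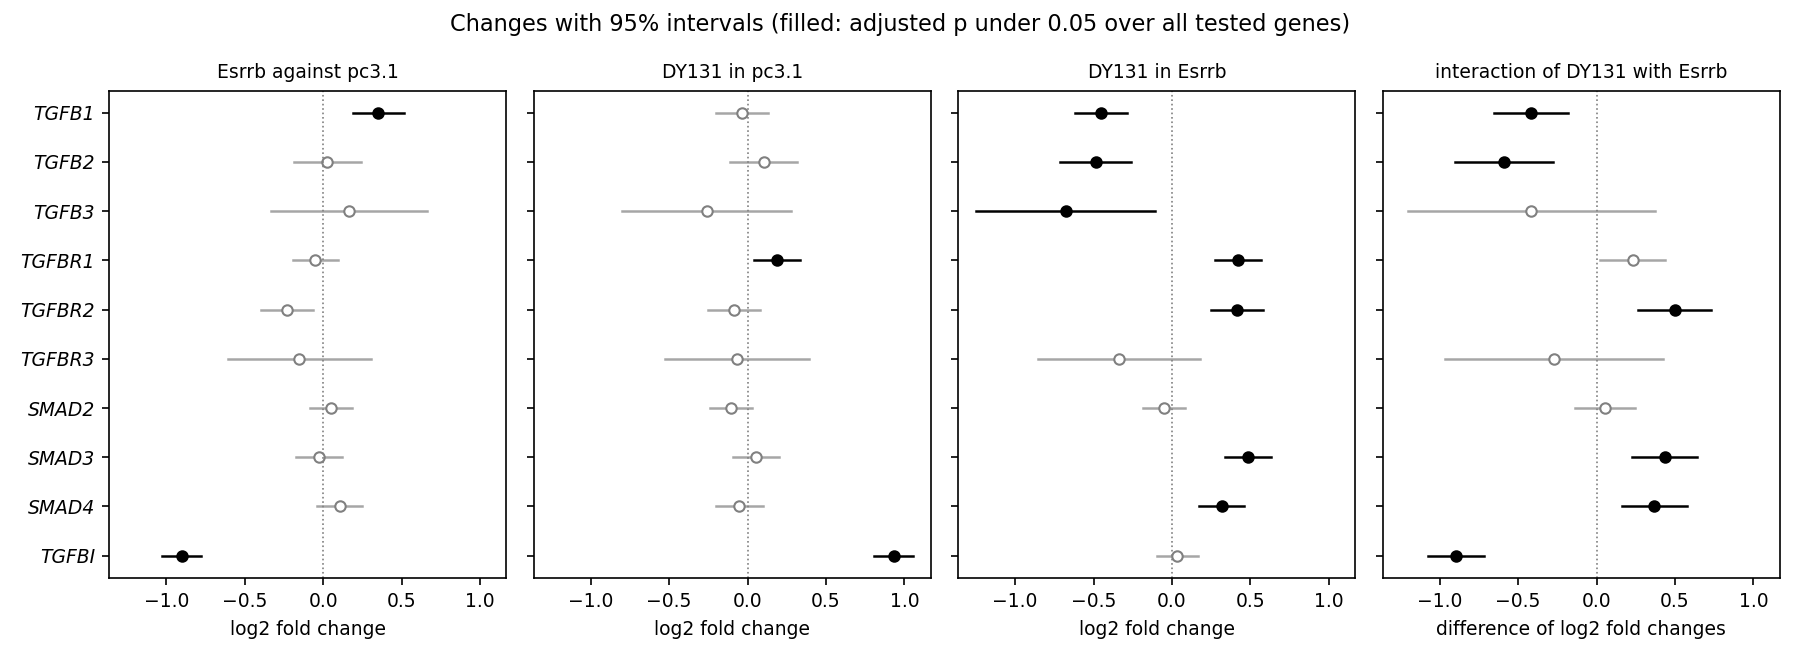
Log2 fold change with its 95% interval (horizontal axis) of the 10 genes in 3 comparisons, and the difference between the DY131 effects of the 2 cell types in the rightmost panel, with filled points at an adjusted p under 0.05. TGFBI lies at -0.90 for Esrrb and 0.93 for DY131 in DU145-pc3.1, and at 0.03 for DY131 in DU145-Esrrb, where the 3 ligands lie below 0 and TGFBR1, TGFBR2, SMAD3 and SMAD4 above it.

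DY131 in cells with Esrrb was addressed by DU145-Esrrb+DY131 against DU145-Esrrb. All 3 ligands were lower, the signalling receptors TGFBR1 and TGFBR2 and the transducers SMAD3 and SMAD4 were higher, and TGFBI, TGFBR3 and SMAD2 did not pass the test. Of all tested genes, 58.7% were altered in this comparison, 29.2% higher and 29.5% lower, against 7 of the 10 members, 4 higher and 3 lower. None of the members was altered by at least 2-fold, while 12% of all genes were. The median log2 fold change was -0.01 for the members and 0.00 for all genes. In 9 of the 10 members the groups did not overlap, as in 82.2% of all genes. The comparison shares the DU145-Esrrb libraries with the comparison of untreated cells.

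Of the ligands, TGFB1 was at 113.3 and 118.7 cpm untreated and at 84.5 and 84.9 cpm with DY131. Both treated libraries were below the untreated ones, by a log2 fold change of -0.45 (SE 0.08, adjusted p = 1.48e-04, edgeR quasi-likelihood test).

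TGFB2 was at 59.9 and 67.0 cpm untreated and at 45.2 cpm in both treated libraries, the lowest level of this gene in any group. Its log2 fold change was -0.49 (SE 0.11, adjusted p = 0.00102, edgeR quasi-likelihood test). Of the 50-base windows of TGFB2, 26.4% also belong to TGFB2-OT1, a noncoding RNA on the same strand at its 3′ end, so part of these counts could come from that RNA.

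TGFB3 rested on 44 and 57 counts untreated and on 25 and 21 counts with DY131, that is 3.74 and 5.24 against 3.26 and 2.37 cpm. The groups did not overlap, but their nearest libraries were closer than the replicates of either group. Its log2 fold change was -0.68 (SE 0.27, adjusted p = 0.0406, edgeR quasi-likelihood test), and the call was lost with DESeq2 (adjusted p = 0.178), without DU145-Esrrb replicate 2 (-0.42, adjusted p = 0.286) and without 1 of the treated libraries (-0.46, adjusted p = 0.279). TGFB3 also shares 163 exonic bases with the antisense RNA TGFB3-AS1, and whether the counting used strand is not given in the sources used here.

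Of the receptors, TGFBR1 was at 69.2 and 69.4 cpm untreated and at 94.9 and 90.5 cpm with DY131. The treated libraries were the highest of all 8, at a log2 fold change of 0.42 (SE 0.07, adjusted p = 9.24e-05, edgeR quasi-likelihood test).

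TGFBR2, which binds the ligand first, was at 178.0 and 165.6 cpm untreated and at 230.0 and 227.9 cpm with DY131. Here too the treated libraries stood above all others, at a log2 fold change of 0.41 (SE 0.08, adjusted p = 3.12e-04, edgeR quasi-likelihood test). The co-receptor TGFBR3 was at 6.11 and 5.52 cpm untreated and at 4.95 and 4.30 cpm with DY131, a log2 fold change of -0.34 with an interval from -0.85 to 0.18, on 38 to 72 counts a library.

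Among the SMADs, SMAD3 was at 237.3 and 238.9 cpm untreated and at 336.2 and 330.7 cpm with DY131. The replicates were close and the groups well apart, with a log2 fold change of 0.49 (SE 0.07, adjusted p = 2.25e-05, edgeR quasi-likelihood test).

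SMAD4, the common partner of the receptor-activated SMADs, was at 74.9 and 77.6 cpm untreated and at 98.3 and 91.6 cpm with DY131. The log2 fold change was 0.32 (SE 0.07, adjusted p = 0.00101, edgeR quasi-likelihood test). A gene on the same strand shares 8.26% of the SMAD4 windows. SMAD2 was at 104.0 and 105.9 cpm untreated and at 100.8 and 101.7 cpm with DY131, a log2 fold change of -0.05 with an interval from -0.19 to 0.09. TGFBI was at 236.4 and 240.1 cpm untreated and at 233.2 and 254.3 cpm with DY131, so the groups overlapped, at a log2 fold change of 0.03 with an interval from -0.09 to 0.16.

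In the DU145-Esrrb+DY131 libraries, changes over all genes moved with transcript structure. For each gene the share of 50-base windows that cross an exon junction was taken as a measure, since such reads need spliced mapping. Over 13608 genes with such a share, Spearman's rho with the DY131 response was -0.377 in DU145-Esrrb and 0.00936 in DU145-pc3.1, as a description across genes that are not independent of each other. When these genes were split by their share into 10 bins of like size, the median response in DU145-Esrrb was 0.27 on the log2 scale in the bin with the fewest junctions and -0.56 in that with the most. The junction share was 6.05% for TGFBR1, 7.53% for TGFBR2, 5.96% for SMAD4, 4.08% for SMAD2 and 6.86% for TGFB2. It was 10.8% for TGFB1, 11.9% for TGFB3, 27.2% for TGFBR3, 25.8% for SMAD3 and 27.6% for TGFBI. TGFBR1, TGFBR2 and SMAD4 thus rose where genes of like structure had a median of 0.19, and the ligands fell where that median was 0.19 (TGFB2), 0.12 (TGFB1) and 0.04 (TGFB3). SMAD3 rose, at 0.49, where its bin had a median of -0.30. What set this trend was not tested. The SMAD3 share was taken from a matched transcript of 1567 bases, while its longest has 6247.

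When an offset removed this trend in each library, the calls on the 3 ligands, TGFBR1, TGFBR2 and SMAD3 remained. The log2 fold changes were then -0.53 for TGFB1, -0.66 for TGFB2 and -0.73 for TGFB3. TGFBR1 and TGFBR2 were at 0.23 (adjusted p = 0.0107) and 0.25 (adjusted p = 0.0103) and SMAD3 at 0.73 (edgeR quasi-likelihood test). The SMAD4 call was lost, at 0.12 (adjusted p = 0.142), and it was also lost with an offset for length and GC content, at 0.13 (adjusted p = 0.0841). With the junction offset TGFBI was higher, at 0.32 (adjusted p = 4.56e-04), and SMAD2 lower, at -0.28 (adjusted p = 0.00168).

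**Figure D3:**
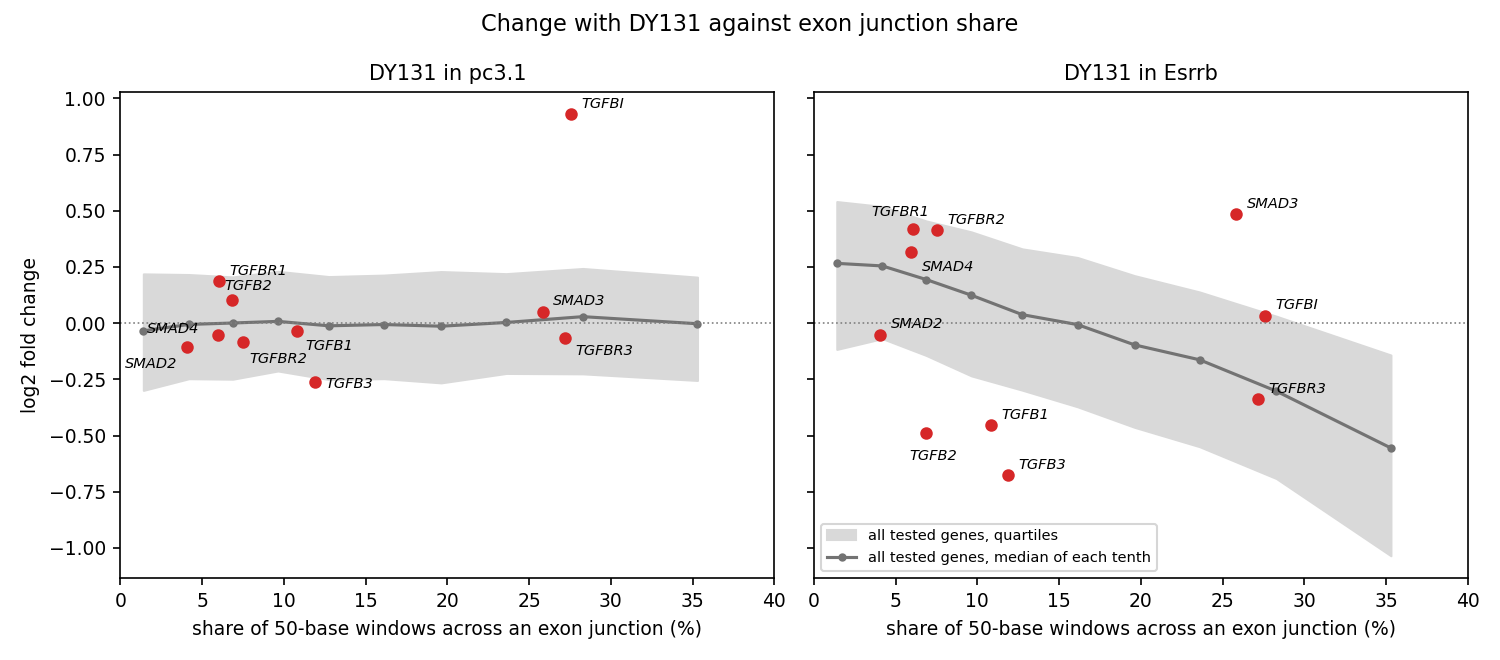
Log2 fold change with DY131 (vertical axis) against the share of 50-base windows across an exon junction in percent (horizontal axis), for the 10 genes (red points) and for all tested genes in 10 bins (grey line, medians; band, quartiles). The grey line is flat in DU145-pc3.1 and falls from 0.27 to -0.56 in DU145-Esrrb, where TGFB1, TGFB2 and TGFB3 lie below it and SMAD3 and TGFBI above it.

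Whether DY131 acted differently in the 2 cell types was tested by the interaction term, the log2 fold change with DY131 in DU145-Esrrb less that in DU145-pc3.1. It was past the threshold for 33.7% of all tested genes, 16.1% higher and 17.6% lower, and for 6 of the 10 members, 3 higher and 3 lower. Differences of at least 2-fold were called for 6.28% of all genes and for no member. TGFBI had the largest difference, -0.90 (SE 0.08, adjusted p = 1.54e-06, edgeR quasi-likelihood test). For the ligands TGFB1 and TGFB2 the differences were -0.42 (adjusted p = 0.00918) and -0.59 (adjusted p = 0.00596). They were 0.50 for TGFBR2 (adjusted p = 0.00284), 0.43 for SMAD3 (adjusted p = 0.00325) and 0.37 for SMAD4 (adjusted p = 0.00919). For TGFBR1 the difference was 0.23 (adjusted p = 0.0800), so that its rise was not shown to differ between the cell types, though without DU145-pc3.1+DY131 replicate 2 the adjusted p was 0.0301. With the junction offset the TGFBR1 difference was 0.037 (adjusted p = 0.821). The SMAD4 call was lost without DU145-pc3.1 replicate 1 (adjusted p = 0.0561) and without 1 of the DU145-Esrrb+DY131 libraries (adjusted p = 0.0625). With the junction offset SMAD4 was at 0.17 (adjusted p = 0.224), and the other 5 remained past the threshold, with TGFBI at -0.59 and SMAD3 at 0.69.

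With both groups on DY131, DU145-Esrrb+DY131 was set against DU145-pc3.1+DY131. The widest gap of any comparison was seen for TGFBI, at 233.2 and 254.3 cpm with Esrrb and at 835.7 and 861.0 cpm without. The log2 fold change was -1.80 (SE 0.06, adjusted p = 3.73e-12, edgeR quasi-likelihood test), a change reached by 2.73% of all genes. In this comparison 50.4% of all genes were altered, 25.1% higher and 25.3% lower, against 6 of the 10 members, 4 higher and 2 lower. At least 2-fold changes were seen for 8.21% of all genes and for TGFBI alone among the members. The groups did not overlap for 7 members and for 72.7% of all genes.

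TGFB2 was lower, at 45.2 cpm in both DU145-Esrrb+DY131 libraries against 58.2 and 75.6 cpm, a log2 fold change of -0.56 (adjusted p = 4.39e-04). SMAD3 and SMAD4 were higher by 0.41 (adjusted p = 1.74e-04) and 0.47 (adjusted p = 4.9e-05), all by the edgeR quasi-likelihood test. With the junction offset SMAD3 was at 0.67 and SMAD4 at 0.27, both still altered and in the other order of size. TGFBR2 and TGFBR1 were at 0.27 (adjusted p = 0.00964) and 0.18 (adjusted p = 0.0373). The calls on both receptors were lost with the junction offset, at 0.10 (adjusted p = 0.297) for TGFBR2 and -0.02 (adjusted p = 0.843) for TGFBR1. Both were also lost without DU145-pc3.1+DY131 replicate 1, at a log2 fold change of 0.13 each, without either DU145-Esrrb+DY131 library and with the length and GC offset (adjusted p = 0.0556 for TGFBR2 and 0.0550 for TGFBR1). The TGFBR1 call was lost as well with DESeq2 (adjusted p = 0.142), with no filter (adjusted p = 0.0545), with at least 10 counts in every library (adjusted p = 0.0743) and with only the libraries compared (adjusted p = 0.113). TGFB1 did not pass the test, at 84.5 and 84.9 cpm against 96.7 and 80.3 cpm, with a log2 fold change of -0.07, though without DU145-pc3.1+DY131 replicate 2 it was lower, at -0.19 (adjusted p = 0.0243). TGFBR3 was at -0.42, and lower without replicate 1 of that group, at -0.72 (adjusted p = 0.0130).

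For Esrrb and DY131 together, DU145-Esrrb+DY131 was set against DU145-pc3.1, which shares libraries with all comparisons above. Of all genes 59.3% were altered, 29.1% higher and 30.1% lower, against 5 of the 10 members, 3 higher and 2 lower. No member was altered by at least 2-fold, against 12.8% of all genes. The groups did not overlap for 9 members and for 81.5% of all genes. TGFBI was at -0.87 (adjusted p = 1.17e-08) and TGFB2 at -0.46 (adjusted p = 0.00165). TGFBR1 was at 0.37 (adjusted p = 2.76e-04), SMAD3 at 0.46 (adjusted p = 3.96e-05) and SMAD4 at 0.42 (adjusted p = 9.15e-05), all by the edgeR quasi-likelihood test. TGFB1 was at -0.10 with an interval from -0.27 to 0.07, and SMAD2 at 0.00. TGFBR2 was at 0.18 (adjusted p = 0.0539), and it passed the threshold with size factors of DESeq2 (adjusted p = 0.0497), with no filter (0.0142), with only the libraries compared (0.00523) and without DU145-pc3.1 replicate 1 (0.0371), while with the junction offset it was at 0.016 (adjusted p = 0.873). With that offset TGFBI was at -0.58, SMAD3 at 0.70, SMAD4 at 0.22 and TGFBR1 at 0.17, all still altered, and SMAD2 was lower, at -0.24 (adjusted p = 0.00505), as it was with the length and GC offset, at -0.23 (adjusted p = 0.00477). TGFBR3 was at -0.49 (adjusted p = 0.0921), and lower with only the libraries compared (adjusted p = 0.0400).

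Over the 4 groups TGFB1 was thus high in untreated DU145-Esrrb cells alone, at 116 ± 3.82 cpm (SD, n = 2), against 90.9 ± 0.857 in DU145-pc3.1, 88.5 ± 11.6 in DU145-pc3.1+DY131 and 84.7 ± 0.290 in DU145-Esrrb+DY131. The last 3 groups did not differ beyond their spread, apart from DU145-pc3.1 and DU145-Esrrb+DY131, whose libraries did not overlap. By Pearson's correlation of log2 cpm over the 8 libraries, the genes most like TGFB1 among 9982 with a mean of at least 10 cpm were ISYNA1 (r = 0.953), DNMT3A (r = 0.941) and PTPRS (r = 0.937). The 8 points come from 4 groups of 2, so these values are a description. ISYNA1, which encodes an inositol-phosphate synthase, had means of 27.0, 37.2, 24.2 and 24.3 cpm in DU145-pc3.1, DU145-Esrrb, DU145-pc3.1+DY131 and DU145-Esrrb+DY131, and PTPRS, a receptor phosphatase, of 82.4, 115.8, 74.4 and 66.6 cpm.

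The rest of the pathway was followed in 6 lists of 85 genes, of which 72 were tested. The list of SMAD regulators holds inhibitory SMADs, ubiquitin enzymes and corepressors, among them USP15, a deubiquitinase that promotes the signal. The list of further receptors holds the co-receptor ENG, the decoy BAMBI and the bone morphogenetic protein receptors ACVR1 and BMPR2. The list called SMAD partners here also holds the bone morphogenetic protein SMADs, which are SMAD1, SMAD5 and SMAD9. In untreated cells with Esrrb against those without, 7 of the 72 were altered, beside 4.18% of all tested genes. When any 1 of the 4 libraries was left out, fewer of the 72 and a smaller share of all genes were altered. Of the latency, release and activation genes, 1 of 12 was higher (0 without any 1 of the 4 libraries and with DESeq2), PCSK6, a proprotein convertase, at 22.0 ± 0.999 against 16.0 ± 2.14 cpm (log2 fold change 0.46). Of the target genes, 1 of 26 was higher (0 without any 1 of the 4 libraries) and 3 were lower (2 to 3), with a median log2 fold change of -0.10 for the list and 0.00 for all genes. TAGLN, an actin-binding protein, fell from 34.4 ± 1.37 to 15.2 ± 1.57 cpm (-1.18), and CTGF, a matricellular growth factor, from 58.9 ± 6.37 to 34.8 ± 3.84 cpm (-0.76). PMEPA1, an inhibitor of SMAD signalling that TGF-beta itself induces, fell by 0.48 on the log2 scale and was the 1 altered gene among 13 SMAD regulators, of which 0 were altered without any 1 of the 4 libraries. SMAD5, a SMAD of the bone morphogenetic protein branch, fell by 0.41 and was the 1 altered gene of 10 in the list of SMAD partners. None of the 4 further receptors and none of the 7 activin genes passed the edgeR quasi-likelihood test.

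DY131 in DU145-pc3.1 altered 34 of the 72 genes, beside 37.4% of all tested genes. Among the target genes 9 of 26 were higher and 5 lower, with a median of 0.09. SPHK1, sphingosine kinase 1, rose from 8.17 ± 0.724 to 22.6 ± 3.07 cpm (1.47), and COL4A1, a collagen IV chain of the basement membrane, from 27.7 ± 0.755 to 64.7 ± 4.02 cpm (1.22). Of 13 SMAD regulators 5 were higher, USP15 among them at 0.27, and 1 was lower, with a median of 0.24. PMEPA1 rose from 56.3 ± 3.07 to 138.3 ± 24.9 cpm (1.30) and SMURF2, a ubiquitin ligase for SMADs and receptors, by 0.98 on the log2 scale. Of 12 latency and activation genes 5 were higher and 4 lower (5 and 1 without DU145-pc3.1 replicate 1). THBS1, which can activate latent TGF-beta, rose by 0.92 on the log2 scale and LTBP2, a latency-binding protein family member, by 0.70. The SMAD partners had 3 higher and 1 lower of 10 (2 and 0 without DU145-pc3.1 replicate 2), with the acetyltransferases CREBBP and EP300 at 0.44 and 0.39. In the activin branch ACVR2B, an activin receptor, was the 1 altered gene of 7, at -0.48, with 0 altered under DESeq2, without either DU145-pc3.1 library and without DU145-pc3.1+DY131 replicate 2. None of the 4 further receptors passed the edgeR quasi-likelihood test, and 1 did with the junction offset or without 1 of 3 libraries (DU145-pc3.1 replicate 1 and either DU145-pc3.1+DY131 replicate).

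DY131 in DU145-Esrrb altered 49 of the 72 genes, beside 58.7% of all tested genes. The junction offset left the direction of each gene named here as it was, apart from MYC, COL4A1, COL4A2 and ITGA5. Of 13 SMAD regulators 9 were higher and 1 lower, with a median of 0.28. With the offset the higher calls on SKI and TGIF1 were lost, while SMAD6 became lower, at -0.64, and USP15 higher, at 0.27. PMEPA1 rose from 40.3 ± 0.588 to 100.2 ± 1.01 cpm (1.31) and SMAD7, an inhibitory SMAD, from 7.06 ± 0.0997 to 12.6 ± 0.414 cpm (0.83). All 7 altered genes among the 10 SMAD partners and bone morphogenetic protein SMADs were higher, with SMAD5 at 0.58 (0.37 with the offset). FOXH1, a DNA-binding SMAD partner, was at 0.89. With the offset the SMAD9 call was lost, at 0.20 (adjusted p = 0.158). STRAP became higher with it, at 0.31 (adjusted p = 4.92e-04, edgeR quasi-likelihood test). Of 12 latency and activation genes 5 were lower and 2 higher, with a median of -0.16 (-0.10 with the offset). ITGAV, at 0.10 (adjusted p = 0.277) without the offset, became higher with it, at 0.85 (adjusted p = 2.68e-07, edgeR quasi-likelihood test). The latency-binding proteins LTBP4 and LTBP3 fell from 62.8 ± 3.93 to 23.0 ± 1.63 cpm (-1.46; -1.04 with the offset) and from 51.6 ± 4.07 to 21.0 ± 0.492 cpm (-1.30; -0.96 with the offset). Among the target genes 12 of 26 were higher and 8 lower. With the offset the higher calls on MYC, SNAI2 and TSC22D1 and the lower calls on FN1, COL4A1, COL4A2 and ITGA5 were lost. COL4A1, COL4A2 and ITGA5 were then at 0.10, 0.07 and 0.11 and MYC at -0.05, while ID1 and SNAI1 were lower. HMGA2, a chromatin protein, rose from 6.08 ± 1.03 to 28.2 ± 2.29 cpm (2.22), and TAGLN from 15.2 ± 1.57 to 59.7 ± 2.90 cpm (1.97). In the activin branch 2 of 7 were higher and 1 lower (0 lower without any 1 of the 4 libraries), with the ligand GDF11 at 1.02 and the activin-binding protein FSTL3 at 0.29 (0.14, adjusted p = 0.0926, with the offset). Of the further receptors 2 of 4 were higher, both of the bone morphogenetic protein branch (1 without DU145-Esrrb replicate 2 and without 1 of the treated libraries), ACVR1 at 0.36 and BMPR2 at 0.34 (0.13, adjusted p = 0.248, with the offset), while ENG and BAMBI were at -0.93 (adjusted p = 0.0748) and 0.62 (adjusted p = 0.0746), by the edgeR quasi-likelihood test.

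**Figure D4:**
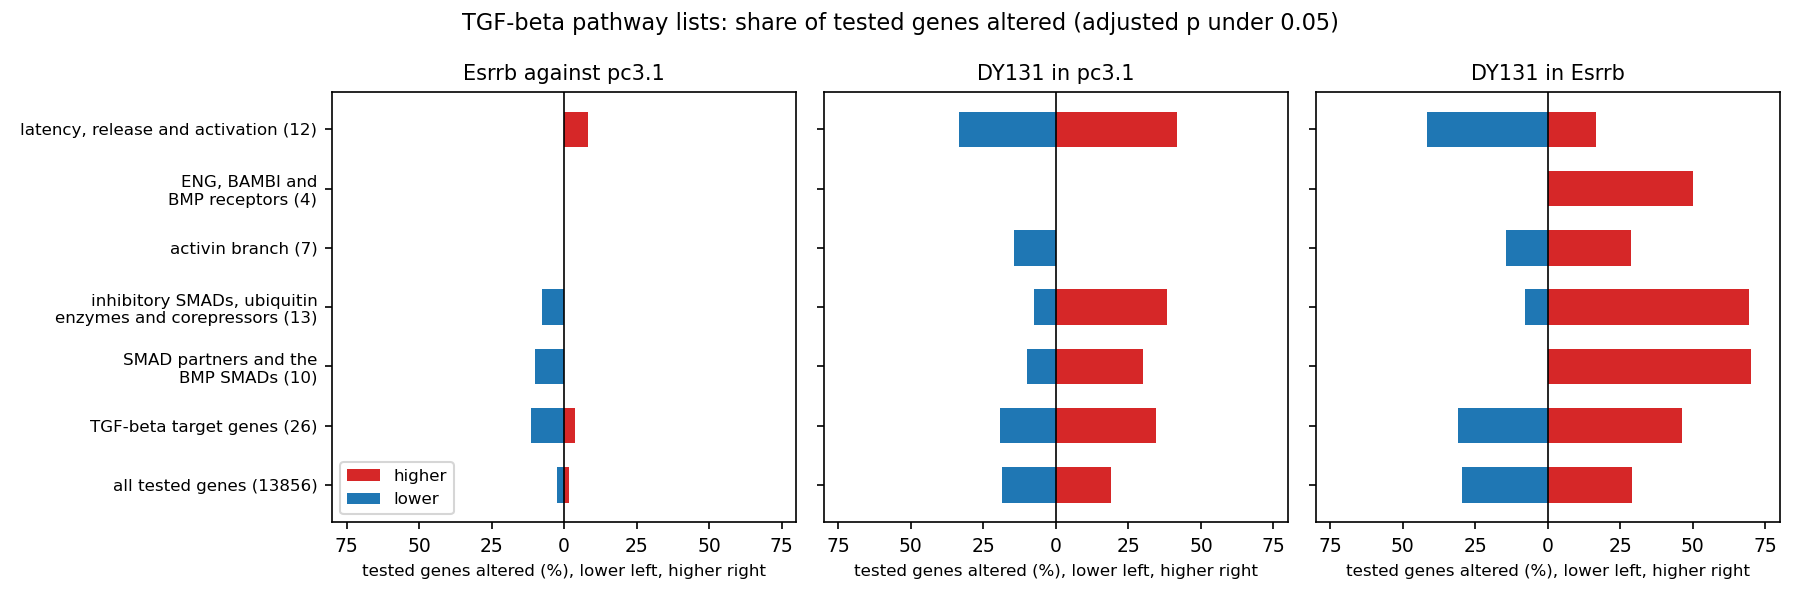
Share of the tested genes of each list that were altered at an adjusted p under 0.05 (horizontal axis, percent; red to the right, higher; blue to the left, lower) in 3 comparisons, with the number tested in parentheses and all 13856 tested genes in the bottom row. With DY131 in DU145-Esrrb, 9 of 13 SMAD regulators and 7 of 10 SMAD partners were higher, against 29.2% of all genes. The list of SMAD partners includes the bone morphogenetic protein SMADs.

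The interaction term was past the threshold for 33 of the 72 listed genes, beside 33.7% of all genes, and with the junction offset for 20 of the 72, beside 22.7% of all genes. Of the latency, release and activation genes 8 of 12 had a lower and 1 a higher response to DY131 in DU145-Esrrb than in DU145-pc3.1, with a median difference of -0.55 (4 lower and 0 higher with the offset, median -0.38). Among the target genes 9 of the altered differences were above 0 and 4 below it, and 6 and 5 with the offset. COL4A1 differed by -1.67 on the log2 scale: it rose by 1.22 with DY131 in DU145-pc3.1 and fell by 0.45 in DU145-Esrrb. With the junction offset COL4A1 was at 0.10 in DU145-Esrrb (adjusted p = 0.369), so that this fall was lost, and the difference was -1.12. TAGLN differed by 0.89 (0.87 with the offset) and HMGA2 by 1.5 (1.26 with the offset) in the other direction, by the edgeR quasi-likelihood test. These 3 genes were singled out here after the values were seen.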

How the data were processed

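The 8 RNA-Seq libraries were made by the authors with a stranded mRNA kit and read as 50-base single reads in 1 lane. The authors used FASTX-Toolkit for trimming and TopHat2 for mapping to hg18. They deposited raw counts per gene, made with their program MULTICOM-MAP and not normalized. How strand and ambiguous reads were treated is not given in the sources used here. Columns were assigned by their headings. The 2 DU145-Esrrb+DY131 columns carry the same heading and so have no replicate number.

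From the deposited counts, 13856 genes that reached 1 cpm in 2 or more libraries were tested in 1 model of the 4 groups with edgeR 4.0.16 (TMM, quasi-likelihood F test, two-sided, Benjamini-Hochberg adjustment) in R 4.3.3. Values in cpm use effective library sizes. Alternatives were edgeR's exact test, DESeq2 1.42.0, other scaling, filters, subsets of libraries, a replicate block and offsets for exon junctions or for length and GC content. Transcript values came from GENCODE 29 (GRCh38), with 22019 genes matched by RefSeq identifier, 720 by symbol, 14 by another symbol and 638 unmatched. The steps were tested on simulated data. Figures were drawn with matplotlib 3.10.9.

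The members, the lists and the rule for named genes were chosen with earlier results of these data known. All 10 members are named, with up to 2 genes of each list in each of 3 comparisons: those with the largest change among altered genes with a mean of at least 5 cpm whose libraries do not overlap. Genes outside this rule, such as USP15, ENG and BAMBI, are named to describe a list or the calls that an alternative moved. The study calls the 2 libraries of a group biological replicates. The p-values measure the spread between these libraries, and the depth of a value is given by its counts. Where both libraries of a cell type come from the same pool, the p-values do not cover differences between pools from transfection and selection. Such differences then cannot be told apart from those of Esrrb. Some marker genes are not reported here.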

Additional observations from a re-analysis of the deposited data

Results flagged for a closer look

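The response to DY131 differed between the 2 cell types for 6 of the 10 genes by the interaction term of the edgeR quasi-likelihood test. The same held for 33.7% of all 13856 tested genes. Each of the 6 differences is given as the log2 fold change in DU145-Esrrb less that in DU145-pc3.1. TGFBI differed by -0.90: both DY131-treated libraries rose above both untreated ones in DU145-pc3.1, while the groups overlapped in DU145-Esrrb. TGFB1 differed by -0.42 and TGFB2 by -0.59, with both ligands lower with DY131 in DU145-Esrrb and treated values on either side of the untreated ones in DU145-pc3.1. TGFBR2 differed by 0.50, SMAD3 by 0.43 and SMAD4 by 0.37. With the exon junction offset the differences were -0.59 for TGFBI, -0.50 for TGFB1 and -0.76 for TGFB2. They were 0.34 for TGFBR2, 0.69 for SMAD3 and 0.17 for SMAD4, the last with an adjusted p of 0.224 (edgeR quasi-likelihood test). The SMAD3 value rests on the junction share of a matched transcript of 1567 bases, while its longest has 6247. The part of the exon junction trend of the DU145-Esrrb+DY131 libraries in these differences was not tested.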

How the results depend on the processing

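Of the log2 fold changes of the 10 genes under the alternatives, 779 kept their direction and side of the threshold, 33 lost a call with the same sign, 20 gained one, and 28 changed sign without passing the threshold, of which 1 (TGFBR1 with both groups on DY131 and the junction offset) lost a call. Without 1 library, the lone replicate of its group is assumed to vary like the other groups. For untreated DU145-Esrrb against DU145-pc3.1, 1 member instead of 2 was altered at an adjusted p under 0.01 and without any 1 library, TGFB1 being lost. Of all tested genes, 1.56% were altered there at an adjusted p under 0.01. Without 1 library the log2 fold changes were -0.32 to 0.026 for TGFBR3 and -0.10 to 0.0085 for TGFBR1. They were -0.053 to 0.11 for TGFB2 and -0.090 to 0.40 for TGFB3. For DY131 in DU145-pc3.1, 1 member instead of 2 was altered at an adjusted p under 0.01, with scaling by library size alone, with no filter, with DESeq2, with only the libraries compared and with the 6 numbered libraries and no replicate block (an alternative added after seeing the data), and 1 to 3 without 1 library. Beside these counts, 24.5% of all tested genes were altered at an adjusted p under 0.01. The share was 25.2% to 37.7% with the other settings named that kept all libraries of both groups. With the offset for length and GC content TGFB1 was at 0.079 and TGFB2 at -0.0070. Without 1 library, values were -0.17 to 0.090 for TGFB1, -0.10 to 0.29 for TGFB2, -0.22 to 0.049 for TGFBR2, -0.41 to 0.23 for TGFBR3, -0.066 to 0.17 for SMAD3 and -0.10 to 0.0012 for SMAD4. For DY131 in DU145-Esrrb, TGFBI was at -0.028 with library size alone, -0.0027 with at least 10 counts in every library, -0.0061 with the length and GC offset and -0.034 to 0.094 without 1 library. With both groups on DY131, TGFBR1 was at -0.02 and SMAD2 at -0.14 with the junction offset, and TGFB1 at 0.018 with the length and GC offset and -0.19 to 0.062 without 1 library. For DU145-Esrrb+DY131 against DU145-pc3.1, TGFB1 was at 0.10 with the length and GC offset and SMAD2 at -0.04 to 0.028 without 1 library. In the interaction, TGFBR3 was at 0.023 and SMAD2 at -0.18 with the junction offset, and -0.58 to 0.071 and -0.014 to 0.10 without 1 library. Counts over the pathway lists, also added after seeing the data, went from 7 to 3 at an adjusted p under 0.01, 4 with DESeq2, 12 with only the libraries compared and 3 to 4 without 1 library in untreated cells, and from 33 to 20 with the junction offset in the interaction. Over all genes, 579 were altered in untreated cells, 216 at an adjusted p under 0.01, 948 with no filter, 317 with DESeq2, 1209 with only the libraries compared, 370 with 6 numbered libraries and 140 to 194 without 1 library. For DY131 in DU145-pc3.1 the 5185 genes became 3393 at an adjusted p under 0.01 and 3418 without DU145-pc3.1 replicate 1, and in the interaction 4674 became 2814 and, with DESeq2, 2897. Replicate numbers were not found to pair the libraries (correlations of deviations 0.0753, 0.0284 and -0.0707). With the replicate block on 6 numbered libraries, alone or with the junction offset, 2 members were altered in each of the first 2 comparisons. TGFB1 was at 0.35 (adjusted p = 0.0477, edgeR quasi-likelihood test). Of all tested genes, 2.89% and 35.6% were altered with the block alone, and 3.16% and 36.3% with the offset as well. The cause of each change was not tested. Depth limits TGFB3, at 21 to 57 counts a library, and TGFBR3, at 38 to 76.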
